A study of Pinctada imbricata with 5 samples.

Results

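The pearl sac on day 20 after implantation was compared with the pearl sac on day 15, unigene by unigene, in a series of 5 tag-count libraries. The comparison uses 2 of the 5 libraries, those whose labels give the stages as surgical implantation at 15 and at 20 days, and the scaling uses all 5. Per the labels, both libraries came from pearl sacs of oysters 1.5 years old that carried a surgical implant, with total RNA taken by Trizol. The species is Pinctada imbricata in the sample labels and Pinctada martensii in the series title. Each day has 1 library, and the number of sacs or oysters in a library is left unsaid in the labels. A unigene is an assembled transcript. Of 19415 unigenes listed in the series, 11675 were listed on day 15, 8824 on day 20 and 6023 on both days.

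The pearl sac is a pouch of epithelium that grows from a graft of mantle, the tissue that makes the shell, around an implanted nucleus. Its outer cells secrete a matrix of proteins and polysaccharides in which calcium carbonate is laid down, first often as prisms or organic layers and later as nacre. Secretion draws on the endoplasmic reticulum and vesicle traffic, and a growing epithelium also draws on mitochondria, protein turnover and the cytoskeleton.

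Expression was read as tags of 21 bases that start at a CATG site of a transcript. Each tag stands for its unigene. The leading tags of 8 such unigenes are shown because their counts make up the results that follow, with the CATG site in capitals:
Unigene51171, similar to vacuolar protein sorting 13D: CATGgttaatcaaagggaaga
Unigene6470, no protein match: CATGttgctgaactaaaaata
Unigene79656, ribosomal protein L22e: CATGaccaagaaatacctaaa
Unigene92331, Kruppel-like factor: CATGcgttaagggcagattat
Unigene40430, no protein match: CATGtctcccaattattccac
Unigene38190, serine proteinase: CATGtagtggtgacagtggtg
Unigene85613, cytochrome C oxidase subunit IV-like protein: CATGctgagagaaaaagagaa
Unigene59783, ATP synthase beta subunit: CATGgtgggtaacatcgaaga
The first of these was counted 366208 times on day 15 and 804653 times on day 20. Its unigene took 37.7% of the listed tags on day 15 and 60.1% on day 20. The other 3 tags of Unigene51171 all lay at the same site and all differed from the leading tag at the same base, position 14 counted from 1 at the 5′ end of the tag. In Unigene34424, another very abundant unigene, 46 tags 1 base from the leading tag were spread over 17 positions.

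The totals behind the libraries were close, 4777386 tags on day 15 and 4784094 on day 20. The tags assigned to unigenes came to 970724 and 1339346, and without Unigene51171 to 604456 and 534343. Levels are given as scaled TPM, that is the authors' TPM, a gene's tags against the library total, divided by a factor for the library's composition (1.16 on day 15 and 0.902 on day 20), with no correction for transcript length. With these factors equal tag counts in both libraries are a 1.29-fold higher level on day 20. A unigene was compared when it reached 10 scaled TPM on either day, which is 55.5 tags on day 15 or 43.1 on day 20. It was called higher or lower on day 20 when the whole 95% counting interval of its ratio lay beyond 2-fold. Of 1625 compared unigenes 410 were higher (25.2%) and 441 were lower (27.1%), which is 52.4% in all. The median log2 ratio of all compared unigenes was -0.04. With 1 library a day there is no measure of the spread between oysters or preparations, no test was made, and the intervals cover counting error only. In a whole tissue, fewer cells of a type and less RNA per cell cannot be told apart.

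**Figure D1:**
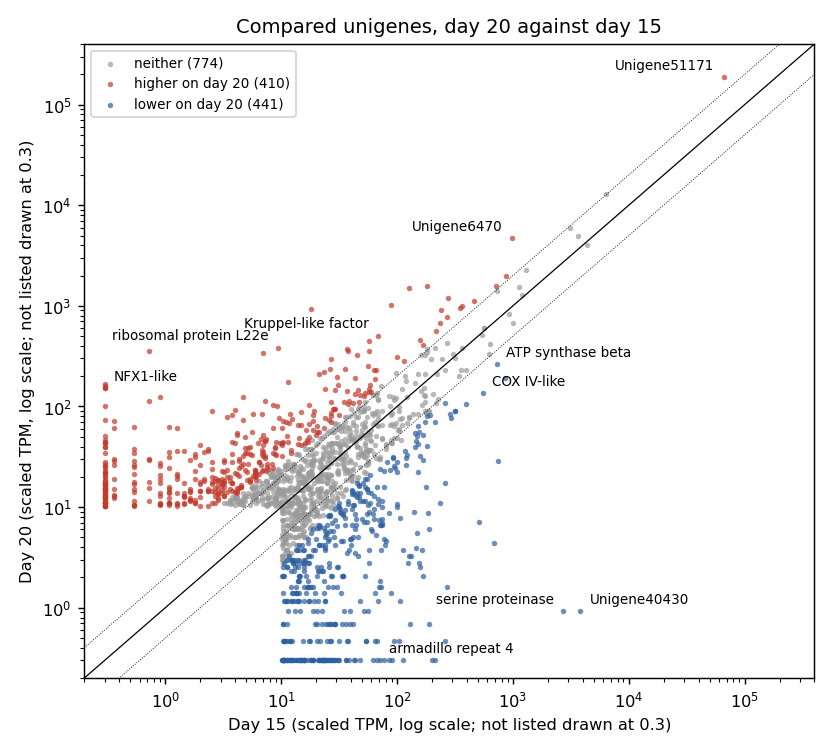
Level of each of the 1625 compared unigenes on day 15 (x axis) and day 20 (y axis), both in scaled TPM on log scales, with 1 point per unigene and unlisted values drawn at 0.3. Red points were higher on day 20, blue points lower, and grey points neither; the solid line marks equal levels and the dotted lines 2-fold, and the empty corner at the lower left comes from the minimum level of 10.

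Many of the differences were large. The interval lay beyond 4-fold for 227 of the higher and 267 of the lower unigenes, and beyond 10-fold for 108 and 153. Not listed at all on day 15 were 62 of the higher unigenes, and not listed on day 20 were 82 of the lower ones. Among those listed in both libraries the median fold was 6.18 for the higher and 7.22 for the lower group. Set against all 5 libraries, day 15 was the highest of the 5 days for 375 of the 441 lower unigenes, while day 20 was the lowest for 198 of them. Day 20 was the highest of the 5 days for 304 of the 410 higher unigenes, and day 15 the lowest for 237. Choosing unigenes by their difference between these days raises all 4 counts; over all 1625 compared unigenes day 15 was highest for 577 and day 20 for 507.

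The calls split differently by whether a unigene had a protein match. Of 339 compared unigenes with a match in the nr protein database, 60 were higher (17.7%) and 131 lower (38.6%), with a median log2 ratio of -0.89. Of 1286 without a match, 350 were higher (27.2%) and 310 lower (24.1%). Their median was 0.17, which became -0.17 when the levels were scaled by total tags alone. The same scaling moved the median of all compared unigenes to -0.39 and that of matched unigenes to -1.25. The share of unigenes listed at all moved likewise. Of 5341 matched unigenes in the series, 66.0% were listed on day 15 and 36.8% on day 20, and of 14074 unmatched ones 57.9% and 48.7%. Why the groups differ was not tested.

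Compared genes of the mitochondrial respiratory chain were lower on day 20. Of 30 in the series 9 reached the level for comparison, and these 9 were all lower. In the background 27.1% were lower, and 38.6% among matched unigenes. Their median log2 ratio was -2.02, or -2.03 with unlisted genes set to 3 tags. Several of the 9 reached the minimum level through the day 15 library alone, which favours a lower call. With the minimum lowered to 1 scaled TPM, 9 of 19 members were lower (47.4%) and none higher, against 17.5% lower among matched unigenes. The chain passes electrons to oxygen and drives ATP synthase, which makes most of a cell's ATP. Cytochrome C oxidase subunit IV-like protein (Unigene85613), part of the complex that reduces oxygen, had 213, 3070, 583, 427 and 1492 tags on days 10, 15, 20, 30 and 60. It was 4.09-fold lower on day 20 than on day 15 (interval 3.74 to 4.48). Day 15 was the highest of the 5 days, and the value of day 20 lay above those of days 10 and 30 in tags. ATP synthase beta subunit (Unigene59783), the catalytic subunit, had 1954, 4023, 1140, 1190 and 1671 tags and was 2.74-fold lower (2.57 to 2.93). Its gamma subunit (Unigene66591), the rotating shaft of the enzyme, had 168, 810, 198, 198 and 8 tags and was 3.18-fold lower. The NADH dehydrogenase end of the chain went the same way. The 42 kda subunit (Unigene92462) had 249, 857, 240, 163 and 464 tags and was 2.77-fold lower, and a second NADH:ubiquinone oxidoreductase match (Unigene46980) had 213, 923, 128, 146 and 337 tags and was 5.60-fold lower. The beta subcomplex subunit 7 (Unigene73343) had 94 tags on day 15 and was unlisted on day 20, at least 24.3-fold lower. For each of these 6 genes day 15 was the highest of the 5 libraries. Cytochrome c oxidase subunit 5A, the ATP synthase delta chain and the beta chain of electron-transfer flavoprotein completed the list, from 94 to 21, from 78 to 8 and from 413 to 43 tags.

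Compared members of the mitochondrial ribosome, which translates the proteins encoded by mitochondrial DNA, were mostly lower too. Of 7 compared members 6 were lower and none higher, with a median log2 ratio of -1.74. Of all compared unigenes 27.1% were lower, and of matched ones 38.6%. Several of the 7 reached the minimum level through the day 15 library alone, which favours a lower call. With the minimum at 1 scaled TPM, 6 of 13 members were lower (46.2%) and none higher, against 17.5% lower among matched unigenes. Protein S21 (Unigene82869) had 99, 416, 50, 86 and 117 tags over the 5 days and was 6.46-fold lower on day 20 (4.81 to 8.85). Protein L41 (Unigene88396) had 51, 304, 31, 34 and 45 tags and was 7.62-fold lower. Protein S26 (Unigene88500) had 133 tags on day 15 and 58 on day 20, a 1.78-fold difference that did not pass the rule. Of 30 members in the series 27 were listed on day 15 and 14 on day 20.

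Other mitochondrial proteins gave a more mixed picture. Of 8 compared members 3 were lower (37.5%), none was higher and 5 passed in neither direction. That share is near the 38.6% lower among matched compared unigenes, with 27.1% among all compared. A beta subunit of isocitrate dehydrogenase (Unigene56184), a citric acid cycle enzyme, had 57, 349 and 41 tags on days 10, 15 and 20 and was unlisted on days 30 and 60; it was 6.61-fold lower on day 20 than on day 15. The match to formation of mitochondrial complexes 1 (Unigene62676) went from 207 to 15 tags, 10.7-fold lower. The mitochondrial inorganic phosphate carrier (Unigene51813), which brings phosphate in for ATP synthesis, had 224 and 409 tags, a ratio of day 20 over day 15 of 2.35 (1.99 to 2.78) that just missed the rule. Of 7 compared chaperones 3 were lower and 3 higher, against 27.1% and 25.2% of all compared unigenes. The lower ones include the chaperonins that fold proteins inside mitochondria. The 60 kDa protein (Unigene89867) had 5, 73, 11, 4 and 14 tags and was 5.16-fold lower. The 10 kDa partner (Unigene20937) had 60, 184, 38, 31 and 80 and was 3.76-fold lower. The higher ones were the HSP70 matches Unigene11712 (0 to 86 tags) and Unigene65737 (3 to 109), and alpha-crystallin B chain (Unigene85224, 6 to 106). Unigene65737 carries the mitochondrion term. The cytosolic ribosome had 3 higher members (37.5%) and no lower one among 8 compared, against 25.2% higher in the background, and 1 higher member when scaled by total tags.

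**Figure D2:**
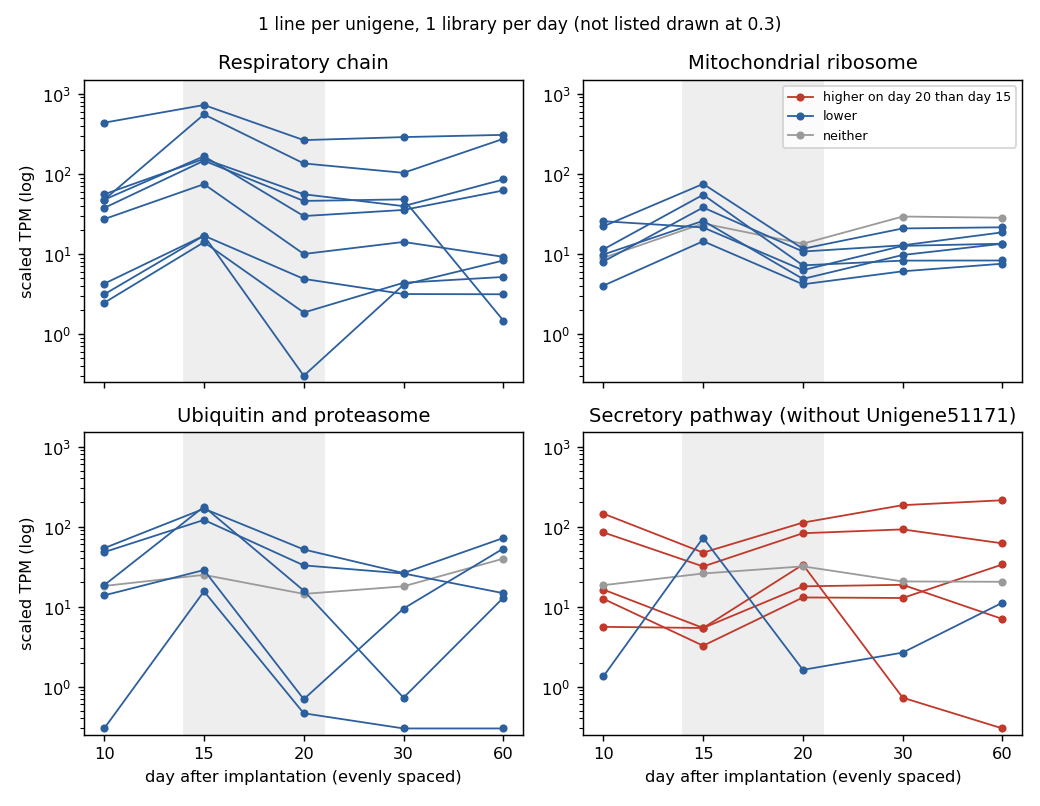
Level of the compared members of 4 gene lists in the 5 libraries, leaving out Unigene51171 of the secretory pathway (x axis, day after implantation, evenly spaced; y axis, scaled TPM on a log scale), with 1 line per unigene, unlisted values at 0.3, and days 15 and 20 shaded. All 9 respiratory chain lines and 6 of the 7 mitochondrial ribosome lines are blue (lower on day 20 than on day 15), while 5 of the 7 secretory pathway lines drawn are red (higher).

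Compared genes of protein degradation were also mostly lower on day 20. Of 6 compared members of the ubiquitin and proteasome list 5 were lower (83.3%) and none higher, with a median log2 ratio of -2.63. In the background 27.1% were lower, and 38.6% among matched unigenes. With the minimum lowered to 1 scaled TPM, 6 of 27 members were lower (22.2%) and none higher. That share is near the 17.5% lower among matched unigenes at that minimum. The proteasome is the barrel-shaped protease that breaks down proteins marked with ubiquitin. The matches to ATPase subunits of its regulatory cap, Unigene75762 (subunit 6B) and Unigene91107, had 980 and 674 tags on day 15 and 68 and 141 on day 20. They were 11.2-fold (8.75 to 14.5) and 3.71-fold (3.09 to 4.48) lower. Within the barrel, subunit alpha type-5 (Unigene90760) had 241, 928, 223, 108 and 391 tags and was 3.23-fold lower. Subunit beta type 2 (Unigene88506) went from 159 to 3 tags, a ratio of 41.2 with an interval of 13.8 to 202. The ubiquitin ligase BRE1A (Unigene1298) had 138 and 62 tags and did not pass. Of 87 members in the series 70.1% were listed on day 15 and 33.3% on day 20, near the 66.0% and 36.8% of all matched unigenes.

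Of 11 compared RNA processing genes 6 were lower (54.5%), 1 was higher and 4 passed in neither direction, where 38.6% of matched compared unigenes were lower. The large subunit of the splicing factor U2AF (Unigene85712), which recognises the end of introns, went from 181 to 20 tags and was 7.03-fold lower (4.42 to 11.8). At the site nearest the 3′ end alone its call was lost. A subunit of splicing factor 3 (Unigene88330) went from 315 to 61 tags and was 4.01-fold lower, with none of its tags at that site. The member that was higher was a match to DEAD box polypeptide 21, an RNA helicase known from ribosome assembly. This unigene (Unigene87030, e-value 3.96e-06) had 1207, 1293, 2934, 476 and 276 tags. It was 2.92-fold higher (2.73 to 3.12) and its tags outweighed the losses, so that the summed level of the list was 578 scaled TPM on day 15 and 820 on day 20.

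Genes of motile cilia and sperm were mostly listed on day 15. Of 40 listed in the series 35 were listed on day 15 and 7 on day 20, and their summed level was 286 and 15.5 scaled TPM, against 18.1, 19.6 and 34.7 on days 10, 30 and 60. The 6 compared members were lower, against 27.1% of all compared unigenes. All 6 reached the minimum level through the day 15 library alone, which favours a lower call. With the minimum at 1 scaled TPM, 9 of 16 members were lower (56.2%) and none higher. At that minimum 14.4% of all unigenes and 17.5% of matched ones were lower. Armadillo repeat containing 4 (Unigene89946), which docks the outer dynein arms of cilia in vertebrates, had 394 tags on day 15 and none on day 20, at least 102-fold lower. A match to dynein heavy chain 5 of the axoneme (Unigene82585, e-value 4.37e-09), a motor of those arms, went from 438 to 18 tags and was 18.9-fold lower. Sperm autoantigenic protein 17 (Unigene88198) had 135 tags on day 15 and was unlisted on day 20, at least 35.0-fold lower. The tubulins that build axonemes and other microtubules followed: beta-tubulin (Unigene18140) had 31, 877, 11, 209 and 49 tags and was 61.9-fold lower, and a tubulin alpha-3 match (Unigene80575) went from 340 to 25 and was 10.6-fold lower. Whether ciliated cells or sperm entered the day 15 library was not tested.

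Of 5 compared actins 3 were higher on day 20 and 2 passed in neither direction, where 25.2% of all compared unigenes were higher. Of the 3, actin 1 (Unigene54854) lost the call when scaled by total tags. Non-muscle actin 6.2 (Unigene21986) had 2083, 19, 337, 678 and 614 tags and was 22.8-fold higher on day 20 than on day 15 (14.4 to 38.4). Day 15 was its lowest library by a wide margin. Another actin match (Unigene65018) had 7 and 88 tags and was 16.2-fold higher. The most abundant actin (Unigene60443) had 4025 and 5999 tags, a ratio of 1.92 (1.84 to 2.00), and did not pass. Actins are near-identical copies, and how the authors' counting split their tags is not given in the sources used here.

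Compared genes of the secretory route, which carries matrix proteins out of the cell, were mostly higher. Of 8 compared members 6 were higher and 1 was lower, against 25.2% higher in the background, with a median log2 ratio of 1.43. Sec61 alpha (Unigene84036), the channel through which new proteins enter the endoplasmic reticulum, had 73, 30, 77, 77 and 38 tags and was 3.30-fold higher on day 20. The beta chain of the signal sequence receptor (Unigene66740), which sits beside that channel, had 652, 262, 485, 765 and 1158 tags and was 2.38-fold higher (2.05 to 2.78). Both had their lowest count on day 15. Syntaxin-1A (Unigene15671), a vesicle fusion protein, had 56, 18, 56, 53 and 183 tags and was 4.00-fold higher. Annexin IX-A (Unigene89973), of a family that binds membranes in the presence of calcium, had 176 and 356 tags and was 2.60-fold higher. The member that was lower was another annexin, A11 (Unigene84692), with 6, 402, 7, 11 and 61 tags. The other 2 higher members are Unigene68223 and Unigene51171. Unigene68223, a calcium homeostasis endoplasmic reticulum protein match with 25, 30, 144, 3 and 0 tags, was 6.18-fold higher. It entered the list by the words of its match, and its gene ontology terms include endoplasmic reticulum and RNA binding. The match of Unigene51171 to a protein sorting factor of chicken has an e-value of 2.44e-07. With levels scaled by total tags Unigene68223 and Unigene51171 were the members still higher. Sec61 alpha, the signal sequence receptor, Syntaxin-1A and Annexin IX-A lost the call, so the count of this group depends on the scaling. Sec61 alpha, Syntaxin-1A and Unigene68223 reached the minimum level through the day 20 library alone, which favours a higher call. With the minimum at 1 scaled TPM, 6 of 24 members were higher (25%) and 1 lower, against 8.01% higher among matched unigenes. Calreticulin (Unigene90482), counted in another list, carries the endoplasmic reticulum term. It went from 100 to 7 tags and was 11.1-fold lower. A subunit of the vacuolar proton pump (Unigene91169), which acidifies vesicles, had 61, 26, 140, 44 and 57 tags and was 6.93-fold higher.

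Few genes of the shell matrix and mantle reached the minimum level. One nacre protein match (Unigene14842) had 78, 5, 111, 356 and 152 tags and was 28.6-fold higher on day 20 than on day 15 (11.9 to 89.7). Among 4 unigenes that all match mantle gene 4, a product of shell-forming tissue, 2 were higher, 1 was lower and 1 passed in neither direction. Of all compared unigenes 25.2% were higher and 27.1% lower. One of them (Unigene29181) was listed on day 20 alone, with 75 tags, and another (Unigene79830) went from 63 to 5. Prism matrix genes were not listed on either day, whereas their summed level was 261 scaled TPM on day 10 and 645 on day 30. Collagen type IV (Unigene90525), a basement membrane protein, had 36, 64, 753, 45 and 28 tags and was 15.1-fold higher (11.7 to 19.9), with 2 tags at the site nearest the 3′ end. Follistatin-like 1 (Unigene53180), a secreted protein that binds growth factors, had 905, 4, 50, 388 and 0 tags. Day 20 was 16.1-fold higher than day 15 and still far below days 10 and 30.

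Transcription factors were listed by the words of their match alone. Of 10 compared members 4 were higher and 4 lower, against 25.2% and 27.1% in the background. Scaled by total tags, 3 were higher and 5 lower of 11. Several were unlisted on 1 of the days. The match to nuclear transcription factor X-box binding-like 1 (Unigene54522) had 61, 0, 659, 98 and 258 tags, at least 283-fold higher on day 20 than on day 15. All of them lay at the third site from the 3′ end. A Kruppel-like factor (Unigene92331), of a family of zinc finger regulators, had 627, 380, 2183, 445 and 196 tags and was 7.39-fold higher (6.63 to 8.27). A match to CREB (Unigene47491, e-value 2.08e-06), a factor that responds to cyclic AMP, had 1398, 1949, 4123, 2028 and 2449 tags. It was 2.72-fold higher. For each of these 3 day 20 was the highest library. Going down, the match to a NAC and TS-N domain factor (Unigene71884) had 167, 627, 0, 1561 and 0 tags, at least 162-fold lower on day 20. Transcription factor IIB (Unigene81321), part of the general initiation machinery, was listed on day 15 alone, with 62 tags.

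Single genes of other roles stood at the far ends. Ribosomal protein L22e (Unigene79656) had 71, 52, 1658, 1540 and 10 tags and was 41.0-fold higher on day 20 (31.1 to 55.2), while ribosomal protein L9 (Unigene23715) had 6705 and 5584 tags, a ratio of 1.07. A G protein-coupled receptor match (Unigene89256) had 200, 0, 202, 169 and 62 tags, so that day 15 alone lacked it. Dual oxidase 1 (Unigene52584), a membrane enzyme that produces hydrogen peroxide, had 38, 0, 109, 17 and 9 tags and was at least 46.8-fold higher. Lower on day 20 were 2 serine proteinase matches. Unigene38190 (e-value 5.71e-09) had 34, 15077, 4, 18 and 0 tags, a ratio of 2928 with an interval of 1143 to 10748. Unigene63907 had 0, 432, 0, 5 and 0 tags. CD151 (Unigene87984), a membrane protein of cell contacts, went from 220 to 3 tags, 57.0-fold (19.2 to 278). Calmodulin (Unigene91212), the calcium sensor, went from 104 tags to none listed, and calcineurin B (Unigene90071), the calcium-binding subunit of a phosphatase that calmodulin activates, from 255 to 22. Pyruvate kinase (Unigene81583), the last step of glycolysis, was listed with 104 tags on day 15 and 4 on day 20 and on no other day.

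Among unmatched unigenes the largest count that was lower belonged to Unigene40430, with 9, 21229, 4, 77 and 2 tags over the 5 days. It was 4123-fold lower on day 20 than on day 15 (1610 to 15134). Unigene90288 and Unigene25020 followed the same course, with 3795 and 2843 tags on day 15 against 19 and 31 on day 20. The other 2 of the 5 most abundant, Unigene24872 with 942, 4713, 832, 256 and 454 tags and Unigene10720 with 2507, 4101, 123, 1130 and 3082, were 4.40-fold and 25.9-fold lower and were well above 100 tags on days 10, 30 and 60. In the first 3 the counts of days 10, 30 and 60 were all under 100 tags. Higher on day 20 were Unigene6470, with 4014, 5429, 20206, 4965 and 2714 tags, Unigene32880, with 707, 999, 6737, 531 and 143, and Unigene30050, with 2137, 711, 6450, 3029 and 3420. They were 4.79-fold, 8.68-fold and 11.7-fold higher. Their day 20 count was the highest of the 5 days in each case. The 2 other abundant unmatched unigenes that were higher, Unigene24153 with 4835 and 8602 tags and Unigene21860 with 4003 and 6786, lost the call when scaled by total tags.

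**Figure D3:**
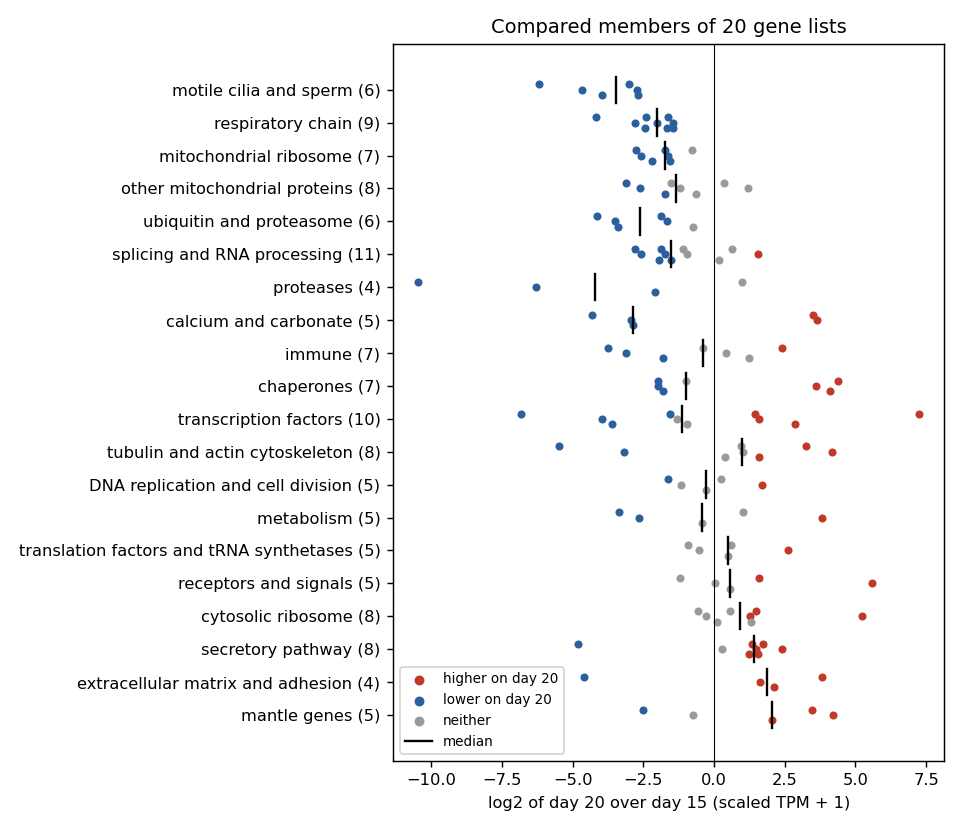
log2 ratio of day 20 over day 15 (x axis, from scaled TPM plus 1) for every compared member of 20 gene lists (rows, number of members in brackets), with 1 point per unigene and a black bar at the median. Motile cilia, respiratory chain, mitochondrial ribosome and proteasome members lie left of 0, and the secretory pathway, matrix and mantle lists have their medians right of it.

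The gene ontology columns gave a coarser view. Terms were attached to 174 compared unigenes, of which 30 were higher (17.2%) and 58 lower (33.3%), with a median log2 ratio of -0.74. Of the cellular components, 4 terms held 10 or more compared unigenes. The cytosol had 1 higher and 9 lower of 13 (median -1.99), and the nucleus 3 higher and 11 lower of 27 (median -1.08). The 3 proteasome genes with a cytosol term carry the nucleus term as well. The cytoplasm had 5 higher and 3 lower of 20 (median -0.39). The membrane term also had 5 higher and 3 lower, of 10 (median 0.90). Its higher members include the proton pump subunit and syntaxin-1A. When the minimum was lowered to 1 scaled TPM the median of the membrane term became -0.14. At that minimum 15.9% of nucleus members and 19.7% of cytosol members were lower, with medians of -0.71 and -0.97. Of all unigenes with a term 15.4% were then lower, with a median of -0.68, so the nucleus was near that background. Of the molecular functions, protein binding had 7 higher and 14 lower of 46, ATP binding 4 and 6 of 15, and RNA binding 2 and 4 of 11. No biological process reached 10 compared unigenes.

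Fewer members of most lists were listed on day 20 than on day 15. Histone and chromatin genes went from 28 to 12 listed of 36 (77.8% to 33.3%), and DNA replication and cell division genes from 54 to 27 of 74 (73.0% to 36.5%). Of 62 extracellular matrix and adhesion genes 32 were listed on each day, and cytosolic ribosomal proteins went from 19 to 18 of 22. For all 5341 matched unigenes the numbers were 3527 and 1968 (66.0% and 36.8%), so the day 20 shares of the chromatin and division lists were near that of all matched unigenes. A listed unigene has a tag with at least 2 copies, so these counts follow low levels as well as absence.

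**Figure D4:**
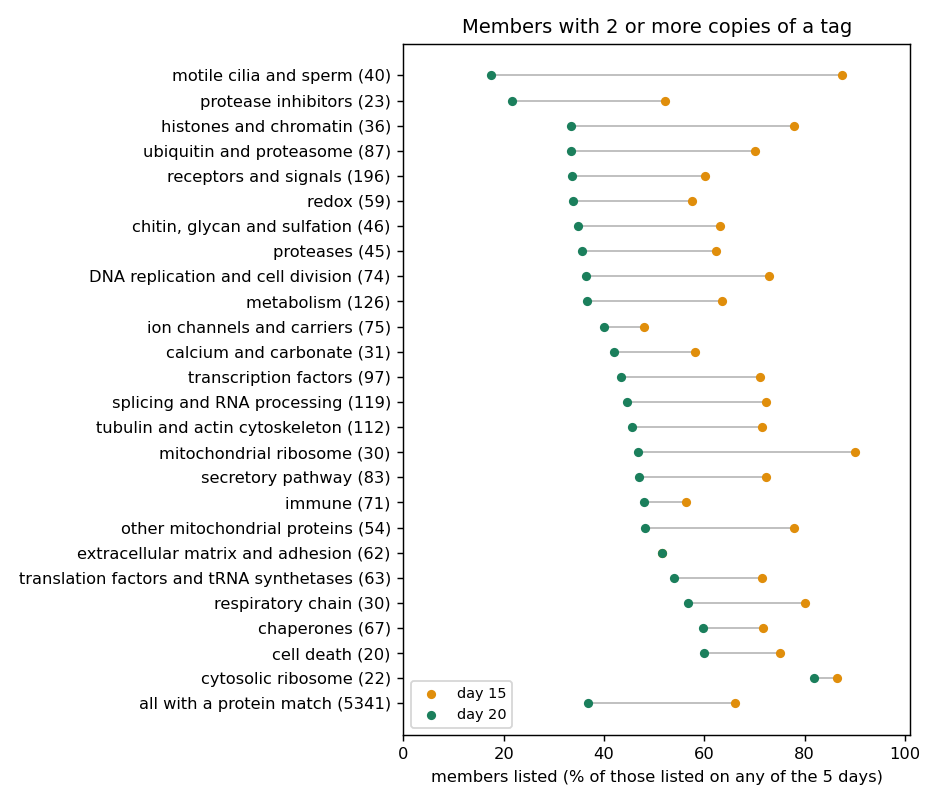
Share of each gene list of 20 or more members that was listed on day 15 (orange) and on day 20 (green), as a percent of the members listed on any of the 5 days (x axis), with the number of members in brackets and all unigenes with a protein match in the last row. The day 20 share is lower in nearly every row, by the widest gap for motile cilia and sperm genes, and equal for extracellular matrix and adhesion genes.

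Apart from the motile cilia and sperm genes above, few markers of other tissues and cells reached the minimum level. Allograft inflammatory factor 1 (Unigene89534), a marker of hemocytes, had 713, 144, 152, 711 and 843 tags, and its ratio of day 20 over day 15 was 1.36 (1.07 to 1.72). No muscle or germline gene reached the minimum level. Muscle genes summed to 5.22 and 9.97 scaled TPM and egg and germline genes to 2.34 and 3.94. Digestive gland markers summed to 10.8 and 18.5, and nervous markers to 1.26 and 12.8, most of the latter from a neuronal calcium sensor match (Unigene13560) with 49 tags on day 20 and none on day 15. Unigenes whose best match lay in a protist went from 125 to 19.7 scaled TPM. They had 3 compared members, all lower on day 20, against 38.6% of matched compared unigenes. With the minimum at 1 scaled TPM, 8 of 21 were lower (38.1%), against 17.5% of matched unigenes. The part of any of these in the results was not tested.

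The 2 libraries also differed in which form of a tag they held. Among 1106 compared unigenes with at least 20 tags on both days, the most frequent tag was the same on both days for 947 and a different one for 159. In 108 of those 159 both tags lay at the same site and differed by 1 base, in 42 they lay at different sites, and in 9 they differed by more. Unigenes with a 1-base difference were called in 33.3% of cases and those with the same tag in 31.9%; the calls sum over all tags of a unigene. The pairs printed next show 3 such unigenes and annexin IX-A, whose leading tag was the same on both days while its second form was listed on day 20 alone of the 2, with the base that differs in capitals and the substitution counted from 1 at the 5′ end of the tag. The first line of each pair is the form that was commoner on day 15.
Unigene80803, eukaryotic translation initiation factor 3 subunit F, day 15 form: catggttccatttattGaaaa
Unigene80803, other form, G17A: catggttccatttattAaaaa
Unigene91660, mannose receptor C type 1-like, day 15 form: catgctcttgcAaaaagggaa
Unigene91660, other form, A12G: catgctcttgcGaaaagggaa
Unigene89973, annexin IX-A, day 15 form: catggcatttgttacCgttat
Unigene89973, other form, C16T: catggcatttgttacTgttat
Unigene23978, no protein match, day 15 form: catgttgacgttaaTacaaat
Unigene23978, other form, T15C: catgttgacgttaaCacaaat
For the initiation factor the first form had 83, 305, 143, 9 and 0 tags over the 5 days and the other form 23, 0, 193, 105 and 133. The first form made up 100% of the pair on day 15 and 42.6% on day 20. The mannose receptor match had both forms on days 15 and 30, with 263 and 211 tags on day 15, and the other form alone on days 10, 20 and 60. Its total of 476 tags on day 15 and 552 on day 20 did not pass the rule. Annexin IX-A held the first form alone on days 10, 15 and 30, and 210 and 143 tags of the 2 forms on day 20. On day 60 it had 112 tags of the other form and none of the first. The unigene had 335 tags on day 60, so most of them lay outside the pair. Unigene23978 had 7121 and 13 tags of the 2 forms on day 15 and 3801 and 5804 on day 20.

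Over the compared unigenes, 140 had such a pair, with at least 50 tags of the pair on both days, the leading tag among the 2, and the rarer form at 10% or more on at least 1 day. Both forms were listed on both days in 58 of them. Only 1 form was listed on day 15 in 52 and on day 20 in 40, with 10 in both sets. The share of the form that was commoner on day 15 moved by 20 percentage points or more in 97 and by 50 points or more in 42, with a median move of 40.1 points. The commoner form changed between the days in 52. By total tags 26 of the 140 were higher, 11 lower and 103 neither, so 26.4% were called against 52.4% of all compared unigenes; the floor of 50 tags on both days favours unigenes that differ little. Whether the forms are alleles, copies of a gene or errors was not tested.

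**Figure D5:**
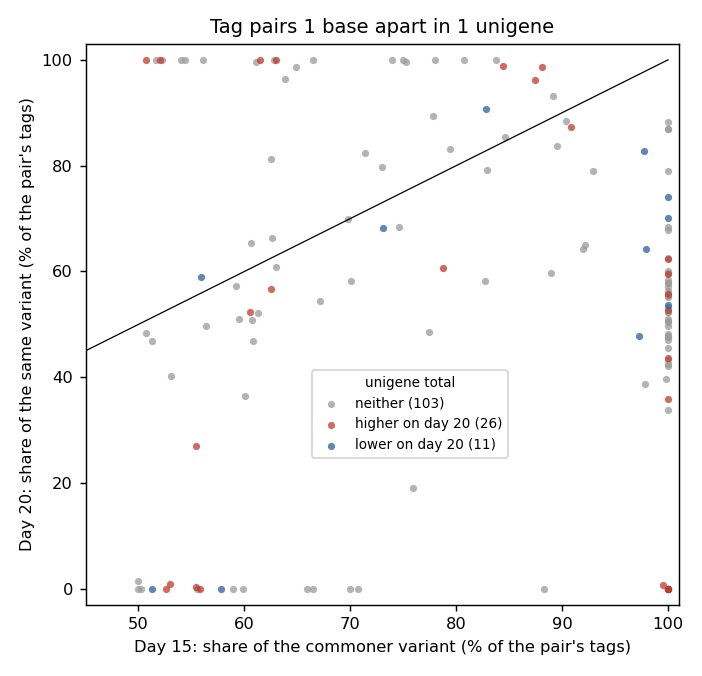
Share of the tag form that was commoner on day 15, in percent of the tags of its pair, on day 15 (x axis) and on day 20 (y axis), for 140 unigenes with 2 tag forms 1 base apart, with 1 point per unigene coloured by the call of its total and a line at equal shares. Points along the right edge had 1 form on day 15, and points along the top and bottom edges had 1 form on day 20.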

How the data were processed

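The deposited tables give, per the file headers, a count per unigene (the sum of its tag copies), a TPM value that the authors computed from the count and a library total, with no length correction, tag sequences with their site number from the 3′ end, gene ontology terms and the best nr protein match. How tags were mapped and counted, and on which assembly, is not given in the sources used here. The labels name a TruSeq kit, which does not produce such tags. Totals were recovered as count over TPM in unigenes of at least 5000 tags. Scaling used TMM over the 5 libraries (edgeR 4.0.16, R 4.3.3; DESeq2 1.42.0 as an alternative), and the remaining work was done with scipy 1.17.1, numpy 2.4.6 and matplotlib 3.10.9 in Python 3.11.15. Ratios have 95% Clopper-Pearson intervals conditional on both counts. An unlisted unigene is set to a floor of 3 tags, a convention, and its fold written as at least. Log2 ratios use scaled TPM plus 1.

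The comparison, the members and the lists were chosen with earlier results of these data known, and the lists, word patterns over the match, were trimmed with values in view. Named genes are, in each direction, the 12 matches naming a protein with the largest fold bound and the 10 with the most tags, the 5 unmatched with the most tags, and in each list up to 4 passing members and the most abundant member that does not pass. The text gives those that the roles turn on. Chosen after their values were seen are Syntaxin-1A, Sec61 alpha, the printed tag pairs, Unigene34424, cytochrome c oxidase subunit 5A, the ATP synthase delta chain and the electron-transfer flavoprotein.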

Additional observations from a re-analysis of the deposited data

How the results depend on the processing

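No paired analysis was possible because each day has 1 library, and for the same reason no replicate could be left out. Without a minimum level 943 unigenes were higher and 1020 lower on day 20, and with a minimum of 20 scaled TPM 251 were higher. With the interval beyond 4-fold the counts were 227 higher and 267 lower. Scaling by total tags moved every ratio by -0.37 (log2, before the pseudocount), and the share of called unigenes that were higher from 48.2% to 34.8%, with 314 higher and 588 lower. Listed tags without the most abundant unigene as the scale moved them by -0.19 and gave 352 and 499. Under the other settings tried (TMM on the 2 libraries, DESeq2 size factors, a minimum of 5 scaled TPM, the 3′-most site alone, an interval beyond 1.5-fold, and 3 settings added after the data were seen) both counts stayed within 1.5 times, and no call of the comparison was reversed under any setting. The added settings kept the leading tag alone (399 and 458), left out tags ending in 9 or more A (410 and 439), or left out unigenes whose leading tags differ by 1 base (387 and 428). With matches limited to an e-value of 1e-10, some lists changed. RNA processing then had none higher and 5 lower of 8 compared, and the secretory route 4 higher and 1 lower of 6. Transcription factors had 3 higher and 4 lower of 9, and proteases 1 lower of 2. The respiratory chain (9 lower of 9) and mitochondrial ribosome (6 lower of 7) did not change. Of 98 named genes with a call, 85 kept it with total tags and 79 at the 3′-most site alone, and none was reversed. The 13 lost with total tags were all higher on day 20, and include Annexin IX-A, the signal sequence receptor, alkaline phosphatase and ribosomal protein S10. The 19 lost at the 3′-most site include the X-box binding-like 1 match, collagen type IV, the proton pump subunit, CD151, calmodulin, transcription factor IIB, the tubulin alpha-3 match and Unigene90288. Counting error is the one error that could be measured, and a unigene near the minimum level has about 50 tags in 1 library.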
